A study of Homo sapiens with 2 samples.

Results

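The zinc finger gene clusters of chromosome 19 were described as 6 spans on hg19 that were fixed by position, cut into bins of 1 kb, and compared with all other listed bins of the chromosome. The spans covered 10880 bins, or 10.88 Mb, and 10376 of these were among the 2600564 autosomal bins with at least 1 read in either library. They are numbered along the chromosome. Cluster 1 was the longest, with 4400 kb from 19900001 to 24300000 on the short arm. The other 5 lay on the long arm. Cluster 2 ran from 36700001 to 38300000, cluster 3 from 44400001 to 45000000, cluster 4 from 52300001 to 53950000, cluster 5 from 56200001 to 57300000 and cluster 6 from 57370001 to 58900000. H3K27me3 was measured by ChIP-seq in cells of the human colorectal carcinoma line HCT116. Crosslinked cells gave 1 group of 2 libraries, named replicates in the labels, and no input library or second antibody was used here. Nothing says whether the replicates came from separate cultures, so their spread may be technical.

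H3K27me3 is placed on histone H3 by Polycomb repressive complex 2 and marks silent genes, often over CpG-rich promoters of developmental regulators. Most genes of these clusters encode KRAB zinc finger proteins, a family expanded by tandem duplication in mammals. The proteins bind DNA, many of them in transposable elements, and recruit the corepressor TRIM28 and the methyltransferase SETDB1, which places H3K9me3. The gene clusters themselves are known in many human cell types as broad domains of H3K9me3, the mark of a different silencing pathway. The question put to the data was whether H3K27me3 was low in these spans.

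The RefSeq gene table used for names has its positions on GRCh38, so no gene was placed on an hg19 bin and no level was assigned to a gene. In its gene order, 266 of 1451 protein-coding genes of chromosome 19 (18.3%) carried a name of the ZNF, ZFP, ZSCAN, ZIM, ZIK or PEG3 kind. Of these, 213 stood in 18 runs of at least 5 direct neighbours. The longest run had 27 genes, ZNF737 through ZNF681, and belongs by general knowledge to the short-arm cluster. A run of 24 genes, ZNF565 through ZNF793, a run of 20, ZNF283 through ZNF180, and a run of 23, ZNF772 through ZNF256, belong to the long arm.

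Promoter sequences are shown because Polycomb is known for CpG-rich promoters. The medians and shares given below cover zinc finger genes of the whole chromosome, not only those of the spans. Of 8 zinc finger genes listed for this purpose, 7 had a promoter in the RefSeq table (GRCh38.p14, 250 bases before to 50 after the start). The 3 printed hold the fewest, the middle and the most CpG pairs among them, with each CG, a motif that reads the same on both strands, in capitals. For the fewest, ZNF93 is tied with ZNF208, which is not printed. The promoter of ZNF93, a gene known for repression of LINE-1 elements, lies on GRCh38.p14 at chr19:19900696-19900995, plus strand, and holds 10 CG. That of ZNF43 lies at chr19:21836133-21836432, minus strand, with 12. That of ZNF382 lies at chr19:36605063-36605362, plus strand, with 27.
ZNF93: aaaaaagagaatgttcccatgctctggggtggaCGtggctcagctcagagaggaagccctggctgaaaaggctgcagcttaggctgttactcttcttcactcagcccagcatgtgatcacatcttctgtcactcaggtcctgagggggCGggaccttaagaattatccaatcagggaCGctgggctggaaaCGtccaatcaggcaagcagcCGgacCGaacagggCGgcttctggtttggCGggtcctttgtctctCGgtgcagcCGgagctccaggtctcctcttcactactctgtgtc
ZNF43: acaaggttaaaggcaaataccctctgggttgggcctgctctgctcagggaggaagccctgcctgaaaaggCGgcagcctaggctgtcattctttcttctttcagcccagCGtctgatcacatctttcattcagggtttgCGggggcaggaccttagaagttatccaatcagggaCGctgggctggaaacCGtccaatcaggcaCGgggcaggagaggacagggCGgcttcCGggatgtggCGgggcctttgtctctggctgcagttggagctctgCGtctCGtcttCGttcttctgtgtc
ZNF382: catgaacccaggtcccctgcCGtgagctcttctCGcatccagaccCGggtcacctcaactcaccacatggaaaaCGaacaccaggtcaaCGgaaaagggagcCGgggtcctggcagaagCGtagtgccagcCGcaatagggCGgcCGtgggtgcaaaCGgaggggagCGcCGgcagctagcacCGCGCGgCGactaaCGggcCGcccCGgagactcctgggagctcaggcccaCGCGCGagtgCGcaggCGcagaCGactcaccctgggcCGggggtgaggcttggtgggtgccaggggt
Over 287 promoters of 229 zinc finger genes of the chromosome the median was 20 CG, against 21 over 1261 promoters of its other protein-coding genes and 14 over all 35116 promoters of the table. The printed promoters of ZNF93 and ZNF43 lie under each of these medians, and that of ZNF382 lies above them. Every one of the 287 held at least 1 CG, and 91.3% held at least 10, against 73.3% of the promoters of other protein-coding genes of chromosome 19 and 56.4% of all promoters. At least 1 CG was found in 96.0% of all promoters of the table.

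Sequencing depth was 53187504 reads for replicate 1 and 97031399 for replicate 2. Levels are read counts of a bin divided by the mean of all listed autosomal bins in that library, which was 22.0 reads in replicate 1 and 37.5 in replicate 2. A level of 1 is therefore the autosomal mean, and 1 read is worth 0.0454 in replicate 1 and 0.0266 in replicate 2. Bins without a read are not listed in the files and counted as 0 inside the clusters.

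H3K27me3 was low in the zinc finger clusters. Over all 10880 bins the mean level was 0.249 in replicate 1 and 0.273 in replicate 2, against 1.07 and 1.05 over the other listed bins of chromosome 19. As means over the libraries these were 0.261 ± 0.0168 in the clusters and 1.06 ± 0.0163 in the rest (SD, n = 2 each), a difference far larger than the spread between libraries. The ratio was 0.233 in replicate 1 and 0.261 in replicate 2, or 0.247 ± 0.0197 (SD, n = 2), so that the clusters stood 4.05-fold lower. Here absent bins counted as 0 in the clusters only, and with those of the rest as 0 too the ratio was 0.284 ± 0.00617 (SD, n = 2). Over listed bins that were not called enriched (calls given below), a choice made on the level itself, the ratio was 0.473 ± 0.00752 (SD, n = 2). The clusters were 20.2% of the bins of the chromosome, counting all of theirs and the listed ones elsewhere, and they held 6.31% of its reads in replicate 1 and 6.49% in replicate 2. With 2 libraries, an exact sign-flip permutation cannot give a two-sided p under 0.5, so no p is given for these differences.

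The typical bin was low as well. The median cluster bin had 3 reads in replicate 1 and 6 in replicate 2, against 9 and 14 in the rest of the chromosome. In levels this was 0.136 and 0.160 in the clusters, against 0.409 and 0.373 in the rest, and the ratio of medians was 0.381 ± 0.0673 (SD, n = 2). Absent bins counted as 0 in the clusters but were left out of the rest, which raises the median of the rest. That median was not computed with absent bins as 0. Over 5 kb blocks with every bin listed in both libraries, the medians were 0.273 and 0.266 in the clusters. The rest had 0.909 and 0.959 there. This choice itself favours higher counts. It kept 31.2% of all cluster bins and 56.2% of the bins of the rest listed in either library, so the sets are not matched. The median over all listed autosomal bins equalled that of the rest of chromosome 19 in each library. Of the listed autosomal bins, 20.3% in replicate 1 and 26.2% in replicate 2 were at or under the median cluster bin.

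**Figure D1:**
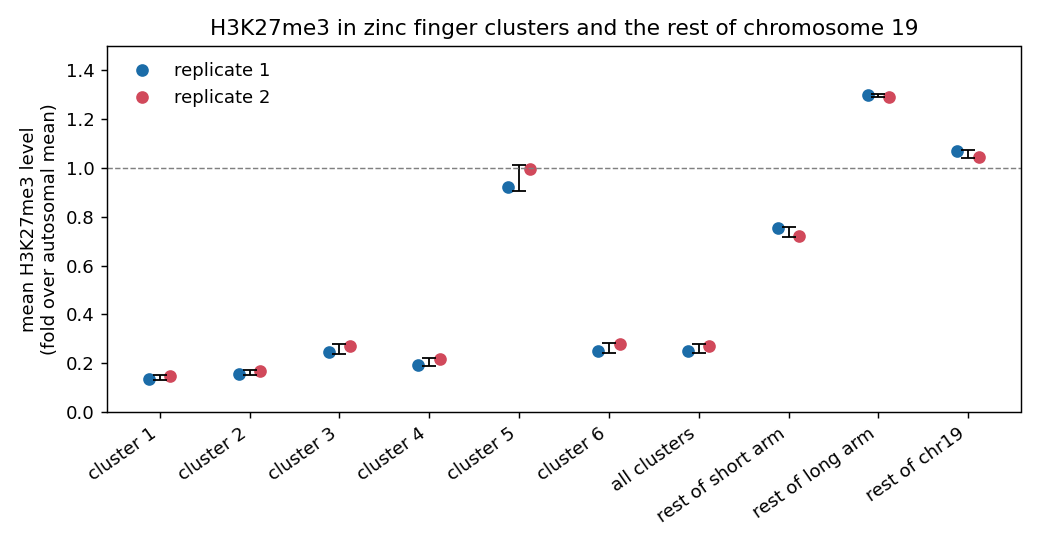
Mean H3K27me3 level (fold over the mean of listed autosomal bins) of each cluster, all clusters together and the rest of chromosome 19, with 1 point per library and bars of 1 SD around the mean of both. Clusters 1 to 4 and 6 lie between 0.136 and 0.277 in both libraries, cluster 5 at 0.920 and 0.997, and the rest of the chromosome at 1.07 and 1.05.

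The clusters fell into a low group of 5 and cluster 5. Cluster 1 was the lowest, at 0.136 in replicate 1 (Poisson 95% interval 0.134 to 0.138, counting error only) and 0.148 in replicate 2 (0.146 to 0.150). Cluster 2 stood at 0.156 and 0.170, cluster 4 at 0.193 and 0.217, cluster 3 at 0.245 and 0.272 and cluster 6 at 0.249 and 0.277. The order of these 5 was the same in both libraries. Clusters 3 and 6 were close, at 0.258 ± 0.0196 and 0.263 ± 0.0199 (SD, n = 2), and their Poisson 95% intervals overlapped in each library. Cluster 5 had 0.920 in replicate 1 and 0.997 in replicate 2, 0.907 ± 0.0653 of the level in the rest of the chromosome (SD, n = 2). Without cluster 5 the ratio of the clusters to the rest was 0.172 ± 0.0146 (SD, n = 2).

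Both arms of the chromosome showed the difference. Cluster 1 had 0.193 ± 0.0171 of the level in the rest of the short arm, where the mean was 0.753 in replicate 1 and 0.723 in replicate 2. Clusters 2 to 6 had 0.263 ± 0.0186 of the level in the rest of the long arm, where it was 1.30 and 1.29 (SD, n = 2). Chromosome 19 outside the clusters thus differed by arm, and the lowest cluster lay on the arm with the lower level.

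Bins were also called one by one. An enriched bin had more reads than the autosomal mean by a one-sided Poisson test, at an adjusted p under 0.05 (Benjamini-Hochberg over all autosomal bins), and reached at least 2-fold, in both libraries. A depleted bin passed the test in the other direction and stood at 0.5-fold or less in both. Among the 10376 cluster bins listed in either library, 157 (1.51%) were enriched, where the same call took 12.7% of all autosomal bins and 13.8% of chromosome 19 outside the clusters. Depleted bins numbered 9012 (86.9%), against 54.2% of all autosomal bins and 54.6% of chromosome 19 outside the clusters. The mean is pulled up by enriched domains, so a depleted bin is low against that mean and need not lie below unmarked chromatin. The further 504 cluster bins were listed in neither library and were not called.

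By cluster, 0 of 4116 bins were enriched in cluster 1, 0 of 1493 in cluster 2, 0 of 595 in cluster 3 and 0 of 1611 in cluster 4. At an unadjusted Poisson p under 0.05 in both libraries, with no fold minimum, these 4 clusters had 2 bins above the autosomal mean, both in cluster 4, where 18.2% of all autosomal bins passed. In either library they had 11, where 23.2% of all autosomal bins passed. By the adjusted call with its 2-fold minimum, cluster 6 had 4 enriched bins of 1484, and cluster 5 had 153 of 1077, or 14.2%. The share of depleted bins was 95.8% in cluster 1, 94.0% in cluster 2, 88.2% in cluster 4, 80.5% in cluster 6 and 79.8% in cluster 3. It was 53.3% in cluster 5, near the share over all autosomal bins.

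**Figure D2:**
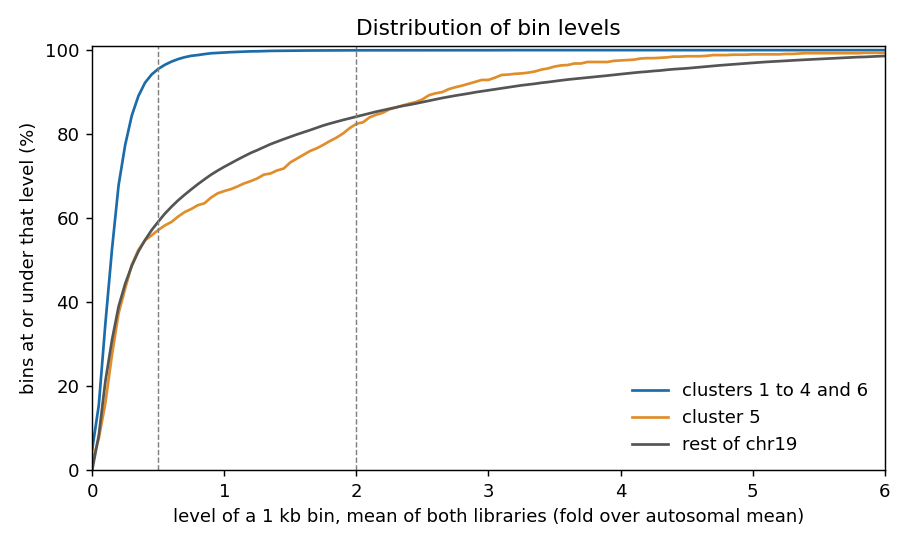
Share of 1 kb bins (%) at or under each level (fold over the autosomal mean, mean of both libraries), for clusters 1 to 4 and 6, cluster 5 and the rest of chromosome 19, with dashed lines at 0.5 and 2; absent bins count as 0 in the clusters, and the rest holds bins listed in either library. The curve of clusters 1 to 4 and 6 is nearly complete at 0.5, and that of cluster 5 runs close to the rest of the chromosome.

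Low levels were also common outside the clusters. Chromosome 19 was divided into windows of 100 kb lying wholly inside or wholly outside the clusters and at least 50% listed. Window levels here are means of both libraries. The 107 cluster windows had a median of 0.168, from 0.0757 up to 2.23, and the 446 other windows had a median of 0.474, from 0.0771 up to 5.61. Of the cluster windows 100 (93.5%) lay under 0.5, against 230 (51.6%) of the others, and the ranges overlapped. Of the 100 lowest windows of the chromosome, 43 were cluster windows and 57 were not. Among windows with no enriched bin, a choice made on the level itself, the median was 0.165 in 98 cluster windows and 0.212 in 186 others. The lowest window of the clusters, at 0.0757, was close to the lowest window elsewhere, at 0.0771.

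**Figure D3:**
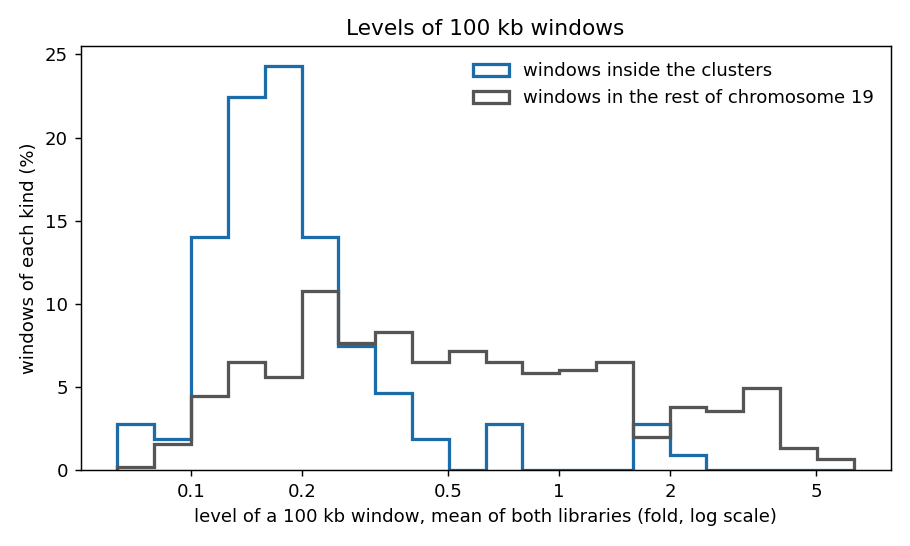
Share of 100 kb windows (%) by level (fold over the autosomal mean, mean of both libraries, log scale), for 107 windows inside the clusters and 446 in the rest of chromosome 19. Cluster windows gather around their median of 0.168, while the others spread from 0.0771 up to 5.61.

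Within cluster 1 the level stayed low from end to end. In steps of 400 kb it was highest in a pair of steps that did not differ beyond the spread between libraries. The first, from 19900001 to 20300000, had 0.195 in replicate 1 and 0.212 in replicate 2, and that from 21100001 to 21500000 had 0.189 and 0.217. The lowest step, from 20700001 to 21100000, stood at 0.0791 and 0.0892, with 85.3% of its bins listed. The step before it contained a run of 70 kb listed in neither library, from 20521001 to 20591000. Between 22300001 and 23500000 the steps stood between 0.115 and 0.120 as means of both libraries, and few of their bins were absent. Its highest single bin by the mean of both libraries, from 21437001 to 21438000, had 25 reads in replicate 1 and 40 in replicate 2, levels of 1.14 and 1.07.

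In windows of 50 kb, 203 of the 217 windows of all clusters lay under 0.5 by the mean of both libraries. These included all 88 of cluster 1, all 32 of cluster 2, all 12 of cluster 3 and all 33 of cluster 4. The highest window of cluster 4 was its first, from 52300001 to 52350000, at 0.447 and 0.505. That of cluster 3, from 44900001 to 44950000, stood at 0.465 and 0.470. That of cluster 2, from 36850001 to 36900000, stood at 0.242 and 0.314, and that of cluster 1, from 21400001 to 21450000, at 0.389 and 0.411. None of these 4 highest windows reached the autosomal mean. The lowest by the same mean were 0.0139 in cluster 1, from 20500001 to 20550000 with 14.0% of bins listed, and 0.0803 in cluster 2, from 37750001 to 37800000 with 34.0% listed. In cluster 3 the lowest was 0.108, from 44600001 to 44650000, and in cluster 4 it was 0.109, from 53550001 to 53600000. In the last pair 96.0% and 94.0% of bins were listed. Replicates differed by a median of 0.0217 per window, and by 0.331 at most. Replicate 2 was the higher in 167 of the 217 windows.

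**Figure D4:**
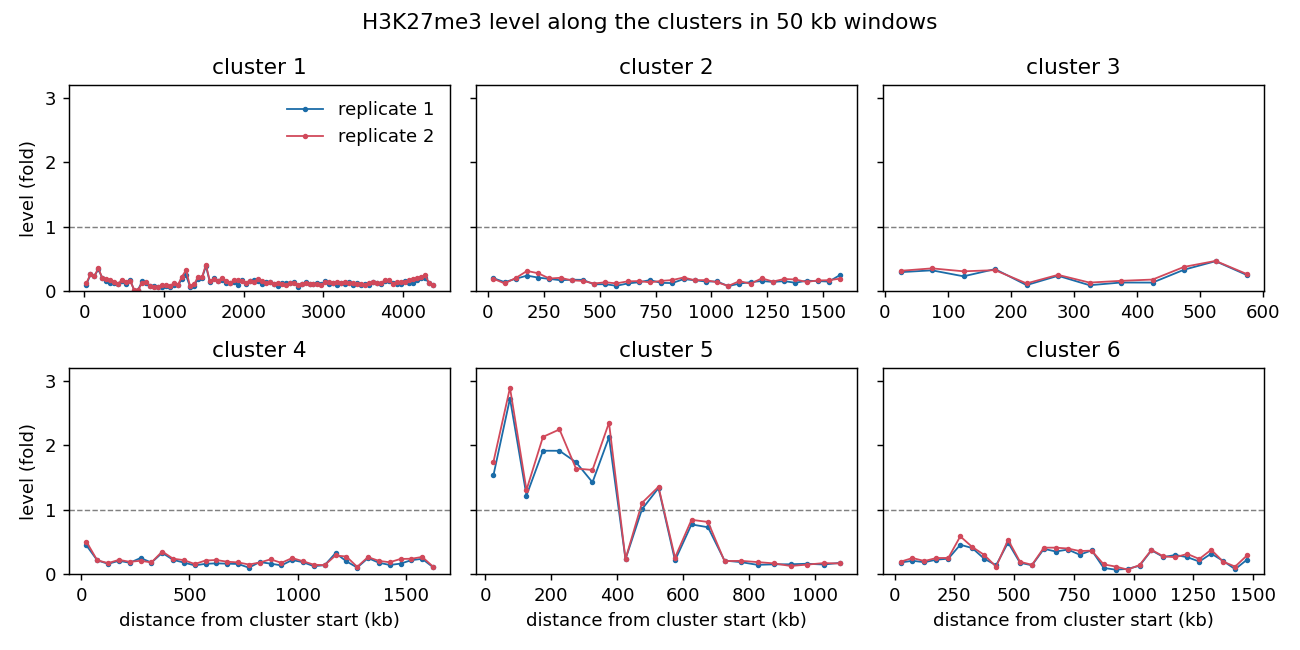
H3K27me3 level (fold over the autosomal mean) in windows of 50 kb along each cluster, by distance from the cluster's start (kb), with 1 line per library and a dashed line at 1. Only cluster 5 passes 1, in its first 8 windows and in 2 later ones, and its last 8 windows lie between 0.141 and 0.208 as means of both libraries.

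Cluster 5 held nearly all of the enriched runs of the spans. With 10.1% of the cluster bins it took 37.4% of the cluster reads in replicate 1 and 37.0% in replicate 2, and its share of enriched bins was near that of chromosome 19 outside the clusters. Its 39 enriched runs, bins joined across gaps of at most 1 bin, covered 169 kb of the 174 kb in all clusters. In 50 kb windows, as means of both libraries, its first 8, from 56200001 to 56600000, ranged from 1.26 up to 2.81. The next 6, to 56900000, ranged from 0.234 up to 1.35. The last 8, from 56900001 to 57300000, ranged from 0.141 up to 0.208, as low as the other clusters.

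The longest run of cluster 5 covered 21 kb, from 56379001 to 56400000, at 2.89 in replicate 1 and 3.05 in replicate 2, or 2.97 ± 0.109 (SD, n = 2); run levels are means over the whole run, joined gaps included. The next covered 14 kb from 56562001 to 56576000, at 3.76 ± 0.227, and 13 kb from 56261001 to 56274000, at 3.40 ± 0.252. Runs of 9 kb began at 56324001 (3.42 ± 0.199), at 56711001 (2.84 ± 0.153) and at 56546001 (2.75 ± 0.0867). The run of 8 kb from 56276001 to 56284000 was the highest of the 10 longest, at 5.73 ± 0.340, and contained the highest bin of all clusters, with 225 reads in replicate 1 and 374 in replicate 2. The runs of 7 kb from 56481001 (3.76 ± 0.280), of 6 kb from 56408001 (2.61 ± 0.0917) and of 5 kb from 56235001 (3.49 ± 0.212) completed the 10 longest (each SD, n = 2). The last was the highest of 3 runs of 5 kb, the others starting at 56420001 and 56677001. All 10 lay in cluster 5, and 9 of them in its first 376 kb, which ended with the run of 14 kb and had a mean of 1.86 in replicate 1 and 2.02 in replicate 2. The remaining 724 kb had 0.432 and 0.464. This point was taken from the levels, so that its sides are a description.

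Not all genes known in this region are zinc finger genes. In the GRCh38 table the neighbours NLRP11, NLRP4, NLRP13, NLRP8 and NLRP5, genes of the NOD-like receptor family, follow EPN1, NLRP9 and the RFPL4 genes. ZNF787, ZNF444, GALP and the ZSCAN5 genes come after NLRP5, and the run of 8 zinc finger genes from ZNF582 through ZNF71 comes later. By general knowledge these genes fall within cluster 5 or just before it. The enriched runs were not assigned to any of them because the gene table has no hg19 positions.

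Outside cluster 5 the clusters held 2 enriched runs, both in cluster 6. The longer spanned 4 kb from 57824001 to 57828000, at 2.32 in replicate 1 and 2.94 in replicate 2, and held 3 enriched bins. Its last bin, the highest of cluster 6 by the mean of both libraries, had 63 and 126 reads. By the same mean, the highest bins of clusters 2, 3 and 4 had 38 reads in replicate 1 and 36 in replicate 2, 29 and 75, and 32 and 77. These had mean levels of 1.34, 1.66 and 1.75 and were not enriched. Cluster 6 as a whole ranged in 50 kb windows, as means of both libraries, from 0.0776, from 58320001 to 58370000, up to 0.522, from 57620001 to 57670000. The 70 kb between clusters 5 and 6, where the imprinted gene PEG3 is known to lie, stood at 0.191 in replicate 1 and 0.225 in replicate 2, close to cluster 6.

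The level changed at few of the span edges. Over the 100 kb on each side of the 12 edges, the inside was lower than the outside in both libraries at 8. At 3 of these the step was large: 0.346 inside against 1.70 outside at the start of cluster 4, 0.362 against 1.27 at the end of cluster 3 and 0.191 against 0.836 at the end of cluster 2. At the other 5 the inside minus the outside was -0.0584 or closer to 0. The start of cluster 5 went the other way, with 2.23 inside and 0.117 outside. The start of cluster 3 had 0.322 inside and 0.222 outside, and at the starts of clusters 2 and 6 the libraries differed in direction. Averaged over the edges, the inside had 0.845 ± 0.00196 of the outside level (SD, n = 2). Without the start of cluster 5, an edge left out after seeing the data, it had 0.453 ± 0.00457. Between clusters 5 and 6 only 70 kb of outside was available and served both edges.

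**Figure D5:**
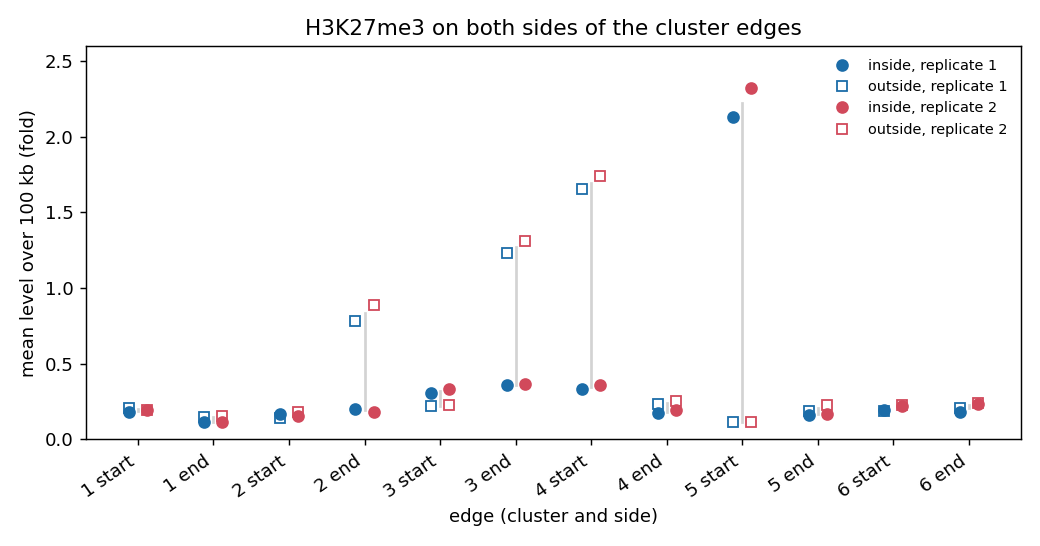
Mean H3K27me3 level (fold over the autosomal mean) in the 100 kb inside (filled circles) and outside (open squares) each span edge, with 1 pair per library. The outside is far above the inside at the end of cluster 2, the end of cluster 3 and the start of cluster 4, and far below it at the start of cluster 5.

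Zinc finger clusters hold near-identical gene copies and repeats, on which short reads are hard to place, and no input library corrects for this or for copy number. Bins listed in neither library made up 4.63% of the clusters and 4.83% of the rest of the chromosome outside the centromeric gap, which covered 3.112 Mb. In single libraries 22.6% of cluster bins were absent from replicate 1 and 10.5% from replicate 2, against 16.7% and 9.52% in that rest. Over 5 kb blocks with every bin listed in both libraries, a choice that itself favours higher counts, the clusters had 0.521 in replicate 1 and 0.552 in replicate 2, against 1.52 and 1.61 in the rest. The ratio there was 0.342 ± 0.000154, and 0.196 ± 0.00383 without cluster 5 (SD, n = 2). These blocks held 31.2% of all cluster bins, and 27.8% without cluster 5. They held 56.2% of the bins of the rest listed in either library, so the ratios do not compare like sets. Low input signal and low H3K27me3 cannot be told apart by these files, and H3K9me3 was not measured.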

How the data were processed

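H3K27me3 ChIP-seq of HCT116 cells was deposited as raw read counts per 1000-base bin, 1 file per library, in which bins with no read are not listed. The submitters' processing notes name BWA 0.7.12 and the build hg19 (GRCh37). How reads were counted, and whether duplicates or reads of low mapping quality were removed, is not given in the sources used here. Duplicates and multiply mapped reads can raise or lower repeat-rich bins.

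The 6 spans were taken by position. Levels are counts over the library's mean of listed autosomal bins. Cluster bins that are absent count as 0, while the rest of chromosome 19 holds listed bins only, and the effect of this is given among the alternatives. Enrichment and depletion were called by one-sided Poisson tests per bin with Benjamini-Hochberg adjustment over all autosomal bins listed in either library, in both libraries; a bin needed at least 45 and 76 reads to be enriched. The calls were run on simulated Poisson counts with known levels, most bins standing at the autosomal mean. Such counts follow the model of the test, so this checked the code and not the fit of the model to these data. Values are per library or mean with SD (n = 2). Bins are not replicates, and no test was made across them. Poisson 95% intervals cover counting error only.

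The text names every cluster, the 10 longest enriched runs (ties by the level of their enriched bins), the lowest and highest 50 kb window of each cluster (for cluster 5 as the range of its windows), and the highest bin of each. The last, and the printed promoters, were chosen after values were seen. The protein sequences planned were not used here, nor were hg19 gene positions. The members and lists were chosen with earlier results of these data known. Software was scipy 1.17.1, numpy 2.4.6, matplotlib 3.10.9 and pandas 2.3.3 under Python 3.11.15.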

Additional observations from a re-analysis of the deposited data

Results flagged for a closer look

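Reads outside the main measurement exceeded the limit that a count of 0 allows, 3 reads per library, on the 2 unlocalised contigs that GRCh37 assigns to chromosome 19. The contig GL000208.1 held 946 reads in replicate 1 and 1804 in replicate 2, and GL000209.1 held 1658 and 3043. A listed autosomal bin held 22.0 and 37.5 reads on average, so passing this limit shows only that reads were present. No level was computed for the contigs.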

How the results depend on the processing

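The clusters stayed lower than the rest of chromosome 19, or the other comparison region used, in every alternative that gave this ratio. A change of scaling cannot alter the ratio. In the alternatives, shares were set against all autosomal bins where a comparison was made, and run counts had no comparison. Values were taken as the same within 1 SD of the replicates, and shares and counts within 1.5 times. The mean level of 0.261, the ratio of 0.247 and the median level of 0.148 became 0.339, 0.294 and 0.184 over bins listed in both libraries, 0.284, 0.280 and 0.166 with 5 kb bins, and 0.341, 0.323 and 0.184 without cluster 1. Without cluster 5, an alternative chosen after seeing the data, they became 0.182, 0.172 and 0.125. Scaled to the median autosomal bin the mean level became 0.669 and the median 0.381. Scaled to the mean over bins listed in either library, also added, the mean level became 0.278. Its SD went from 0.0168 to 0.00474 with that scaling, so the spread between libraries depends on the scaling used. With absent bins of the rest as 0 the ratio became 0.284. The other comparison regions, namely all autosomes, bins within 1 Mb and the same arm, and omission of the top 0.1% of bins, kept the values within 1 SD.

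The enriched share of 1.51% became 0.520% at a minimum of 3-fold (all autosomal bins, 7.64%), 2.50% with no fold minimum (16.7%), 2.51% without cluster 1 and 0.0430% without cluster 5. The depleted share of 86.9% became 55.9% at a maximum of 0.25-fold (all autosomal bins, 28.7%). The 41 enriched runs became 26 at a gap of 3 bins and 2 without cluster 5. The edge ratio of 0.845 became 0.453 without the start of cluster 5, an omission also chosen after seeing the data. Apart from the omissions of a cluster or an edge and from changes built into a threshold, scaling or gap, the cause was not tested.

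With a replicate left out, the mean level was 0.249 to 0.273, the ratio 0.233 to 0.261, the median 0.136 to 0.160, the enriched share 1.78 to 2.08% (all autosomal bins, 14.0 to 15.0%), the depleted share 89.9 to 90.6% (58.9 to 61.5%), the runs 47 to 49 and the edge ratio 0.843 to 0.846. At this depth a single bin of the clusters rests on few reads, and its level is known only roughly. No paired analysis was possible because both libraries belong to a single group.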

Other observations

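The longest stretch of low 100 kb windows outside the clusters, each under 0.5, covered 1.8 Mb from 11500001 to 13300000 on the short arm. Its level was 0.221 in replicate 1 and 0.235 in replicate 2, with windows between 0.0916 and 0.370, and it held 4 enriched bins. In the gene order of the GRCh38 table a run of 24 zinc finger genes, ZNF627 through ZNF791, stands on the short arm between ACP5 and MAN2B1, ahead of the genes of cluster 1. The table has no hg19 positions, so the run was not placed on the stretch; by general knowledge it lies in none of the 6 spans. A stretch of 1.5 Mb from 200001 to 1700000, at 0.260 and 0.274, and one of 1.2 Mb from 31300001 to 32500000, at 0.223 and 0.232 with 0 enriched bins, were about as low. The stretches were picked by their level and carry no test.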
